A study of Mus musculus with 8 samples.

Results

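The levels of 10 genes of intestinal fat absorption were compared between crypts of the small intestine (SI) and colon (COL): Cd36, Fabp1, Fabp2, Mogat2, Dgat1, Apob, Mttp, Apoa1, Apoa4 and Apoc3. They were chosen by symbol, each symbol matched 1 Ensembl identifier in both deposited count tables, and these are 10 of the 45706 genes listed there. The crypts came from 4 wild-type C57BL/6N mice, of which mice 1 and 5 were female and mice 2 and 3 male. Each mouse gave 1 SI and 1 COL library (SI1 to SI4 and COL1 to COL4, with mouse 5 as replicate 4), so that 4 SI libraries were compared with 4 COL libraries. Crypts were released by EDTA and are mixed epithelium rather than a sorted cell type. The methods, which describe isolation for the organoid cultures, name the proximal small intestine and scraping of its villi before the EDTA step. The ages of the mice are not given in the sources used here.

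Dietary triglyceride is cut in the gut lumen into fatty acids and monoacylglycerol, which enter enterocytes, the absorptive cells of the SI, and are carried in the cytosol by fatty acid-binding proteins. Acyltransferases of the endoplasmic reticulum rebuild triglyceride, and microsomal triglyceride transfer protein loads it onto apolipoprotein B to form the chylomicron, the particle that leaves for the lymph with further apolipoproteins on its surface. The pathway is known as a function of the upper SI, and within it mostly of the villus rather than the crypt.

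Since the 10 genes were all higher in the same tissue, the promoters of 4 of them are shown. RefSeq promoters (GRCm38.p6) were on hand for 7 of the 10, all but Apoc3, Dgat1 and Mogat2. The windows of Fabp2 and Fabp1 belong to the paralogous fatty acid-binding proteins. Those of Apoa1 and Apob belong to an apolipoprotein of the particle surface and to the structural protein of the chylomicron. All 4 are printed on the + strand and end directly before the first annotated base of the gene, at chr3:122894942-122895071, chr6:71199697-71199826, chr9:46228450-46228579 and chr12:7977518-7977647. Capitals mark matches to motifs that are spelled out after the sequences.
Fabp2: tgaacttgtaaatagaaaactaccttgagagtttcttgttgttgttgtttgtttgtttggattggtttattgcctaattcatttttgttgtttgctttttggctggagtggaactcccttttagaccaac
Fabp1: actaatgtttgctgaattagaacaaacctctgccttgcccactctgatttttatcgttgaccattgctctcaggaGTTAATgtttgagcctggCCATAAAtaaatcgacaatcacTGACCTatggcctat
Apoa1: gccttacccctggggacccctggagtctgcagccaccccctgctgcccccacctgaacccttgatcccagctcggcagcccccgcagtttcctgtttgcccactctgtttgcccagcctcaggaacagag
Apob: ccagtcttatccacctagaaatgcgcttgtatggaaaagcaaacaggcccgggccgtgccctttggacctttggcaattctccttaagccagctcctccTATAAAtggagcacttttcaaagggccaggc
The search covered the 250 bases before the RefSeq start of each gene on both strands. In Fabp2 the RefSeq start is the first annotated base. It lies inside the annotated gene by 52 bases in Fabp1, 50 in Apoa1, 29 in Apob, 148 in Apoa4, 1550 in Mttp and 52905 in Cd36. Fabp1 matched the HNF1-type motif GTTAAT at -107 from this start, and 6.43% of 32851 RefSeq promoters hold it. It matched the CDX-type motif CCATAAA at -89 and -227, a motif that 2.43% of promoters hold. The core AGGTCA of nuclear receptor sites, held by 14.0% of promoters, matched at -67 (printed as its reverse complement) and at -9 in Fabp1 and at -228 in Cd36. TATAAA was searched on the gene's strand alone and matched at -30 in Fabp1 and at -60 in Apob, against 7.59% of promoters. The matches of Fabp1 at -227, -30 and -9 lie outside the printed window. Those at -30 and -9, and the match of Cd36, lie inside the annotated gene. None of the 7 promoters held the GATA-type motif AGATAA, which 9.99% of promoters hold. Likewise none held the longer nuclear receptor motif CAAAGGTCA, which contains AGGTCA, or the HNF4-type motif CAAAGTCCA, found in 0.426% and 0.384% of promoters. G and C made up 35.6% of the 250 bases before Fabp2, 42.8% before Fabp1, 58.0% before Apoa1 and 55.2% before Apob, against a median of 52.4% over all promoters. A match is only a string of letters and does not show that a factor binds there.

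Total counts were between 15969428 and 32908060 per library. The mitochondrial share of counts was low in 4 libraries (4.83% to 7.35%; SI1, SI4, COL3, COL4) and high in the other 4 (22.7% to 50.8%), with 2 libraries of each tissue at either level. Levels are given as CPM, counts scaled to a common library size by edgeR's TMM method. The quasi-likelihood test of edgeR compared SI with COL over the 14491 genes that passed a filter on low counts, p-values were adjusted by Benjamini-Hochberg over all of them, and a gene was called at an adjusted p below 0.05. All 10 lipid genes passed the filter. Those with few COL reads, such as Cd36 (0 to 10) and Apoc3 (4 to 119), passed through their SI libraries, where they were high. Lct and Gata4, of the proximal SI, reached 2414 to 4461 and 48.3 to 52.9 CPM in the SI libraries, with at most 5.99 and 0.189 CPM in COL. Car1 of colonocytes ran from 1.22 to 382.5 CPM in SI and from 2632 to 30001 CPM in COL, and of the 6 colonocyte markers 3 were called toward COL, 2 were not called and Ceacam20 was called toward SI (160.4 to 741.5 against 24.5 to 126.4 CPM; log2 fold change 2.26). Summed, the 6 came to 522.7 to 1195 CPM in SI and 4688 to 31915 CPM in COL. The 4 ileal markers summed to 19.9 to 110.4 CPM in SI and 26.1 to 191.4 CPM in COL. In SI, Fgf15 was at 0 and Fabp6 and Slc10a2 at 1.51 CPM or less, while Osr2 had 18.6 to 108.7 CPM and was not called. Although these are crypts, 10 markers of villus enterocytes together reached 31556 to 47490 CPM in SI. Of crypt cells, 5 stem cell markers summed to 30.7 to 310.4 CPM in SI, with Lgr5 at 0.634 to 11.2 CPM. The 5 proliferation markers summed to 81.9 to 422.4 CPM and the 5 Paneth cell markers to 262.8 to 2952 CPM. Whether villus material took part in the SI levels of the 10 genes was not tested.

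All 10 lipid genes were called higher in SI than in COL crypts, and none of their SI libraries overlapped their COL libraries. Over all genes tested, 15.5% were called higher in SI and 12.9% higher in COL, and in 17.8% every SI library lay above every COL library. The median log2 fold change of the 10 genes was 10.02, against -0.09 over all genes tested. Ranked by log2 fold change toward SI among the 14491 genes, Apoc3 was 11th, Apoa4 13th, Fabp1 15th, Cd36 20th, Apoa1 22nd and Mttp 48th, while Mogat2, Apob, Fabp2 and Dgat1 followed at ranks 142, 169, 236 and 291. It follows from this lack of overlap between libraries that each of the 10 genes was higher in SI within each of the 4 mice. In bulk crypts, a lower level from fewer cells of a type cannot be told apart from less RNA per cell.

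**Figure D1:**
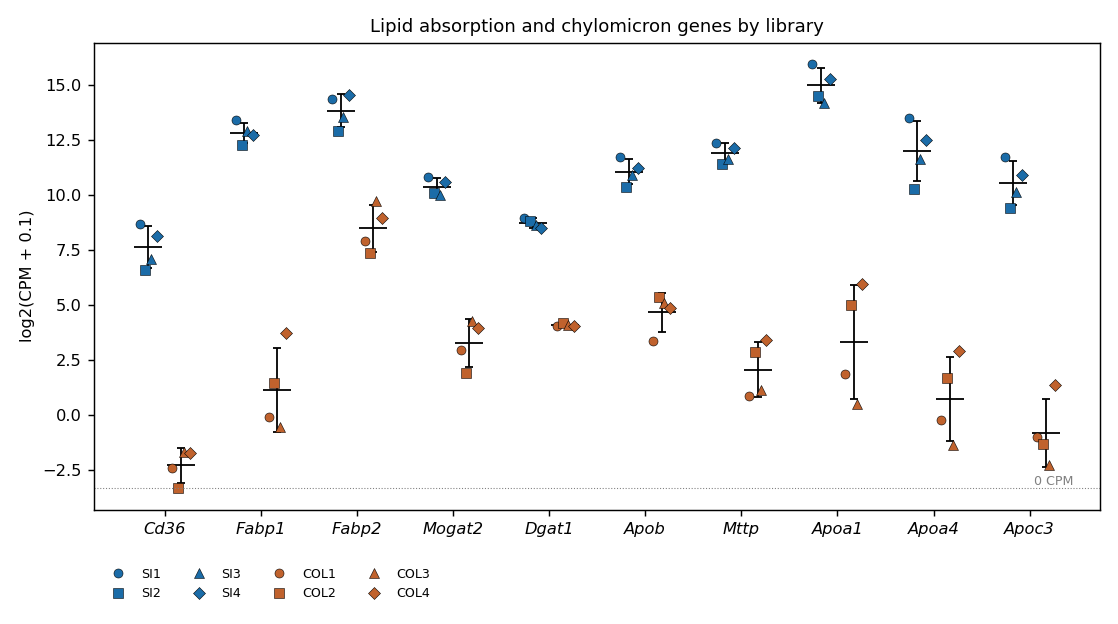
Level of each gene in each library as log2(CPM + 0.1), with SI libraries in blue, COL libraries in orange, 1 symbol shape per mouse, and bars for the mean ± SD of 4 libraries. All SI points of a gene lie above all its COL points; the COL libraries of Apoa1, Fabp1 and Apoa4 are spread widely, and those of Dgat1 lie close together.

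Cd36 encodes a membrane receptor that helps long-chain fatty acids into cells. It lies at chr5:17781690-17888801 on the minus strand (GRCm38). Its level was 410.2, 96.4, 138.3 and 285.5 CPM in SI1 to SI4 and 0.088, 0, 0.214 and 0.209 CPM in COL1 to COL4. COL was therefore close to the limit of detection, with 3, 0, 8 and 10 reads, and the 0 in COL2 allows up to 0.186 CPM (3 counts, counting error only). The log2 fold change was 10.60 ± 0.78 (SE; edgeR, adjusted p = 9.70e-06). Cd36 is also made by macrophages, endothelial cells and adipocytes. In SI the macrophage markers summed to 1.32 to 5.08 CPM and the endothelial markers to 5.13 to 9.73 CPM, while Adipoq, Plin1, Lep and Cfd of adipocytes were at 0 in all SI libraries, where 0 allows up to 0.136 to 0.181 CPM. Cidec, the remaining adipocyte marker, which coats lipid droplets, ran from 81.4 to 329.7 CPM in SI and from 0.851 to 14.9 CPM in COL.

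Fabp1 and Fabp2 encode the liver-type and intestinal-type cytosolic fatty acid-binding proteins, and enterocytes are known to make both. In SI the paralogs were close, and in COL they were far apart. Fabp1, at chr6:71199827-71205023 on the plus strand, had 10975, 5019, 7750 and 6896 CPM in SI1 to SI4 and 0.851, 2.67, 0.588 and 13.3 CPM in COL1 to COL4. COL4 held 634 of its reads and the other COL libraries 22 to 43. The log2 fold change of Fabp1 was 10.77 ± 1.31 (SE; edgeR, adjusted p = 0.000124).

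Fabp2, at chr3:122895072-122899506 on the plus strand, had 21524, 7850, 12045 and 24004 CPM in SI1 to SI4. In COL it kept 246.3, 164.3, 846.6 and 501.0 CPM, so that no COL library was near the limit of detection and COL3 and COL4 were the highest. Its log2 fold change was 5.22 ± 0.83 (SE; edgeR, adjusted p = 0.000732). The log2 ratio of Fabp1 to Fabp2, per kilobase of exon, came to -0.21 ± 0.55 in the SI libraries against -6.64 ± 2.36 in COL (SD, n = 4 each). These ratios did not overlap, up to 0.17 and down to -0.996 in SI and between -9.65 and -4.43 in COL, and they were not tested.

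Mogat2 and Dgat1 act one after the other in rebuilding triglyceride: the product of Mogat2 adds an acyl chain to monoacylglycerol, and that of Dgat1 turns diacylglycerol into triglyceride. Mogat2, at chr7:99219084-99238619 on the minus strand, was at 1814, 1091, 1032 and 1585 CPM in SI1 to SI4 and at 7.66, 3.67, 19.5 and 15.6 CPM in COL1 to COL4. Its log2 fold change was 6.89 ± 0.65 (SE; edgeR, adjusted p = 2.84e-05). COL levels thus ranged 5.32-fold between libraries, and SI levels 1.76-fold.

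Dgat1, at chr15:76502015-76511953 on the minus strand, was the steadiest of the 10 genes. Its SI libraries held 510.1, 459.4, 397.8 and 363.6 CPM and its COL libraries 16.7, 18.3, 17.1 and 16.8 CPM, a coefficient of variation of 15% in SI and 4.2% in COL. The other 9 genes varied by 27.6% to 81.4% in SI and by 45.8% to 138.6% in COL. The difference between the tissues was the smallest of the 10, at 4.65 ± 0.31 on the log2 scale (SE; edgeR, adjusted p = 6.51e-06), and COL held 3.98% of the SI mean.

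Apob encodes the structural protein around which a chylomicron is built, and Mttp the lipid-transferring subunit of the microsomal triglyceride transfer protein that fills it. Apob, at chr12:7977648-8016835 on the plus strand, was at 3467, 1342, 1932 and 2453 CPM in SI1 to SI4 and 10.3, 41.0, 34.6 and 29.4 CPM in COL1 to COL4. Its log2 fold change was 6.32 ± 0.62 (SE; edgeR, adjusted p = 3.53e-05), with COL at 1.25% of the SI mean. The COL values rest on 352 to 1402 reads per library.

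Mttp, at chr3:138089854-138144968 on the minus strand, was at 5394, 2742, 3189 and 4635 CPM in SI1 to SI4 and 1.73, 7.27, 2.14 and 10.6 CPM in COL1 to COL4. The log2 fold change was 9.52 ± 0.88 (SE; edgeR, adjusted p = 2.50e-05), with COL at 0.136% of the SI mean. The log2 ratio of Apob to Mttp per kilobase was nearly the same in the 4 SI libraries, -1.99 ± 0.18, and was 1.47 ± 1.04 in COL (SD, n = 4 each). SI ratios ran from -2.20 to -1.80 and COL ratios from 0.31 to 2.84. By this measure Mttp was the higher of the pair in each SI library and Apob in each COL library. The length used merges all annotated exons, which for Mttp is 6206 bases against 3963 in its longest transcript. The order in COL4 (0.31) depends on which length is taken. Exons of Mttp overlap 457 bases of Trmt10a on the other strand, whose counts were 10 to 46 in SI and 74 to 174 in COL. The use of strand in counting is not given in the sources used here, so reads of this stretch cannot be assigned with certainty.

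Apoa1, Apoa4 and Apoc3 encode apolipoproteins of the particle surface. Apoa1 is also the main protein of high-density lipoprotein, Apoa4 is a marker of fat-absorbing enterocytes, and apolipoprotein C-III inhibits lipoprotein lipase. Apoa1 was at 64614, 23817, 19084 and 40417 CPM in SI1 to SI4 and at 3.55, 32.0, 1.31 and 63.6 CPM in COL1 to COL4. Among nuclear genes it had the most counts in SI1 and SI4 and came at rank 2 in SI3 and rank 3 in SI2. The log2 fold change was 10.52 ± 1.6 (SE; edgeR, adjusted p = 0.000567), the widest error of the 10, and the COL libraries differed 48.5-fold among themselves.

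Apoa4 was at 11653, 1270, 3272 and 5953 CPM in SI1 to SI4, a 9.18-fold range that was the widest of the 10 in SI. In COL1 to COL4 it was at 0.763, 3.11, 0.294 and 7.52 CPM, from 26, 50, 11 and 359 reads. Its log2 fold change was 10.88 ± 1.39 (SE; edgeR, adjusted p = 0.000168). Of the 50-base stretches of its longest transcript, 60.9% also occur in the transcripts of Gm10680 or Gm47528, which are annotated on the opposite strand. Gm10680 held 0 to 3 reads per library, and Gm47528 is not among the genes counted. Their exons overlap 632 and 634 bases of the exons of Apoa4. As the use of strand in counting is not given, reads of this stretch cannot be assigned with certainty. The other lipid genes shared no such stretch with another gene, apart from 2.20% of Mttp with Gm43691.

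Apoc3 was at 3460, 692.9, 1135 and 1972 CPM in SI1 to SI4 and at 0.411, 0.311, 0.107 and 2.49 CPM in COL1 to COL4. Its COL counts were 14, 5, 4 and 119 reads. With a log2 fold change of 11.03 ± 1.21 (SE; edgeR, adjusted p = 6.49e-05) it had the largest estimate of the 10, and COL held 0.0457% of the SI mean. The log2 ratio of Apoa1 to Apoa4 per kilobase came to 3.56 ± 0.83 in the SI libraries against 3.24 ± 0.63 in COL (SD, n = 4 each), and the libraries of the tissues overlapped. For Fabp1 with Fabp2 and for Apob with Mttp they did not, and none of these ratios was tested.

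The 3 genes are neighbours on chromosome 9. Apoa1 spans chr9:46228580-46230466 on the plus strand, Apoc3 spans chr9:46232933-46235636 on the minus strand and Apoa4 spans chr9:46240696-46243459 on the plus strand. Apoa5, the remaining apolipoprotein gene of the cluster, starts 40.1 kb from the start of Apoa1 and had at most 32 reads in a library (1.45 CPM), too few to be tested. Sik3, Zpr1 and Bud13, which flank the cluster, were not called, with log2 fold changes of 0.01 ± 0.32, -0.67 ± 0.43 and 0.18 ± 0.33 (SE; edgeR, adjusted p = 0.986, 0.283 and 0.721), nor was nearby Pafah1b2 (-0.12 ± 0.24; edgeR, adjusted p = 0.754).

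**Figure D2:**
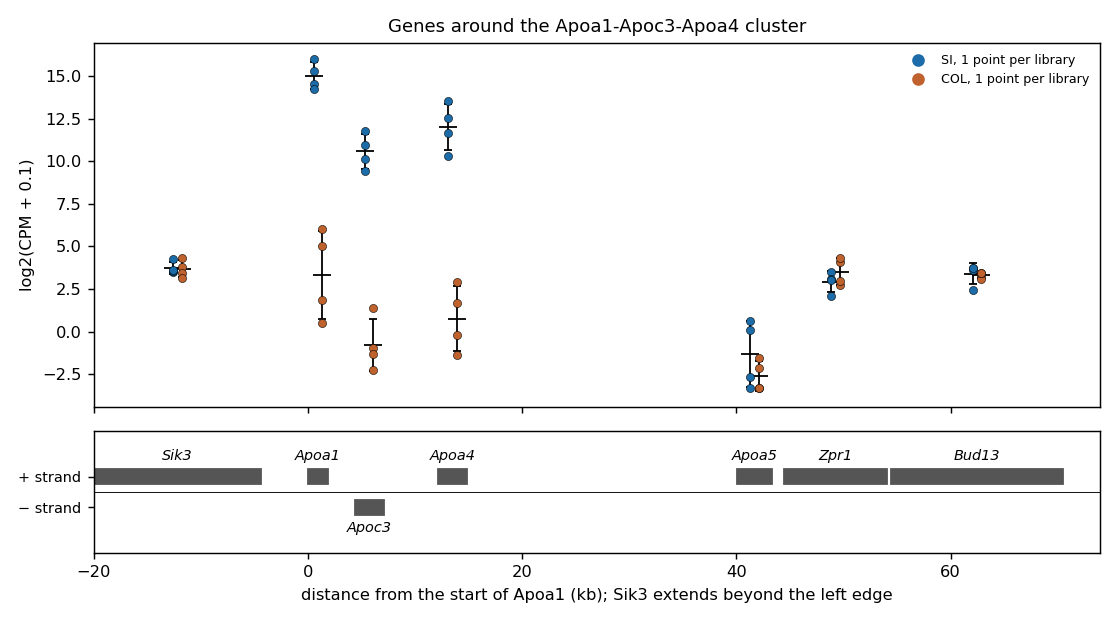
Level of the cluster genes and their neighbours as log2(CPM + 0.1), placed by distance in kb from the start of Apoa1, with 1 point per library, bars for the mean ± SD of 4 libraries, and gene spans by strand underneath. SI and COL points are apart for Apoa1, Apoc3 and Apoa4 and overlap for Sik3, Apoa5, Zpr1 and Bud13.

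Per kilobase of exon, the mean SI level fell from Apoa1 (29922 CPM per kb, rank 2 of the 14491 genes) through Fabp2 (16949, rank 4) and Fabp1 (13851, rank 5) to Apoa4 (3051), Apoc3 (1790), Mogat2 (752.3), Mttp (642.9), Apob (164.9), Dgat1 (141.6) and Cd36 (64.8). Neighbours in this order overlapped between libraries except Fabp1 with Apoa4, Mttp with Apob and Dgat1 with Cd36. In COL the order was another one. Fabp2 led at 455.5 CPM per kb, rank 74 of 14491, and was followed by Apoa1 (20.3), Fabp1 (7.86), Mogat2 (6.33), Dgat1 (5.63), Apob (2.07), Apoa4 (1.61), Mttp (0.874), Apoc3 (0.819) and Cd36 (0.0356). Without COL4, an alternative chosen after seeing the data, the means of Apoa1, Fabp1, Apoa4 and Apoc3 were 9.94, 2.48, 0.765 and 0.272 CPM per kb, and Fabp1 came below Dgat1 (5.68) and Mogat2 (5.60). With all 4 libraries, as in the order given, the neighbours without overlap were Fabp2 with Apoa1, Dgat1 with Apob and Apoc3 with Cd36. Both orders rest on the length of all annotated exons merged. It exceeds the longest transcript of, for example, Mttp (6206 against 3963 bases) and Dgat1 (3056 against 1888), so their places depend on it. Together the 10 genes took 9.0%, 3.47%, 3.98% and 7.03% of all counts in SI1 to SI4 and 0.0416%, 0.0275%, 0.120% and 0.0958% in COL1 to COL4. These totals include mitochondrial counts, whose share differed between libraries. Of nuclear counts alone they took 9.46%, 4.84%, 5.15% and 7.59% in SI1 to SI4. In COL1 to COL4 this share was 0.0569%, 0.0559%, 0.129% and 0.101%.

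**Figure D3:**
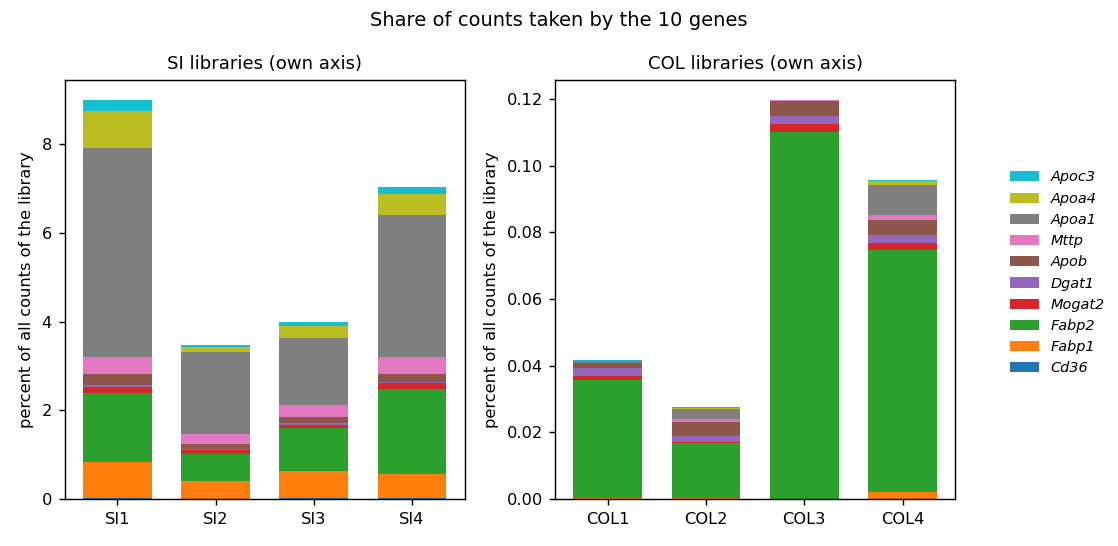
Percent of all counts of a library taken by each of the 10 genes, stacked, for SI (left) and COL (right) on separate axes. Apoa1 is the largest share of each SI bar, and Fabp2 the largest of each COL bar.

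The SI libraries kept a common order for most of the genes. SI1 was highest for 9 of the 10 (SI4 for Fabp2) and SI2 lowest for 7. The shares of all genes tested with SI1 highest or SI2 lowest are not given here, so these counts only describe the 10 genes. Both female mice lay above both male mice for 8 of 10 genes, all but Fabp1 and Dgat1, where 25.4% of all genes tested showed this order. The ratio of the female to the male mean ran from 1.02 for Dgat1 to 3.88 for Apoa4. In SI the female libraries were also those of low mitochondrial share, so that sex and mitochondrial share cannot be told apart there. Crypt markers were lowest in SI1. Their summed level there was 30.7 CPM for stem cell markers, 81.9 CPM for proliferation markers and 262.8 CPM for Paneth cell markers, compared with 217.0 to 310.4, 232.1 to 422.4 and 1380 to 2952 CPM in SI2 to SI4. Villus markers summed to 47490 and 46782 CPM in SI1 and SI4 and to 32567 and 31556 CPM in SI2 and SI3. The part of these markers in the order of the SI libraries was not tested.

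The difference between the tissues was not found to differ between the sexes. In a fit with tissue by sex, no interaction was called (edgeR, 0.0% of 14491 genes; 761 had an unadjusted p below 0.05). Interaction estimates of the 10 genes lay between -1.67 ± 1.70 for Fabp1 and 1.78 ± 0.97 for Apob on the log2 scale (SE), no gene of the 10 had an unadjusted p below 0.05, and the lowest adjusted p was 0.909. DESeq2 called 11 genes and limma-voom 0, and none of the 10 among them. With 2 mice of each sex, differences within these errors, and also larger ones, could have been missed. Within libraries of high mitochondrial share the SI and COL means differed by 4.61 (Dgat1) to 11.91 (Fabp1) on the log2 scale, and within those of low share by 4.66 (Dgat1) to 12.40 (Apoa1).

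In COL the libraries took another order. COL4 was the highest for Fabp1, Mttp, Apoa1, Apoa4 and Apoc3, COL3 for Cd36, Fabp2 and Mogat2, and COL2 for Dgat1 and Apob. For Fabp1, Mttp, Apoa1 and Apoa4, COL2 came next after COL4. Lct and Anpep, enzymes of the SI brush border that were picked after their values were seen, also had COL4 first and COL2 next. Lct was at 5.99 CPM in COL4, 3.92 in COL2, 0.428 in COL3 and 0.088 in COL1, and Anpep at 39.9, 27.5, 4.76 and 2.64 CPM. Their order of COL3 above COL1 was that of Mttp, while Fabp1, Apoa1 and Apoa4 had COL1 above COL3. The whole marker lists did not have COL4 first and COL2 next. In COL1 to COL4 the villus markers summed to 333.3, 583.9, 755.5 and 730.8 CPM, the markers of the proximal SI to 10.3, 31.9, 51.9 and 50.1 CPM and the Paneth cell markers to 72.9, 41.5, 13.4 and 22.7 CPM. In COL4 the level as a share of the SI mean was 0.173% for Fabp1, 0.172% for Apoa1, 0.136% for Apoa4, 0.137% for Apoc3 and 0.265% for Mttp, and it was 0.185% for Lct, 0.206% for Anpep, 1.85% for the summed villus markers, 0.361% for those of the proximal SI and 1.40% for those of Paneth cells. Fabp2, Mogat2, Dgat1 and Apob stood higher, at 3.06%, 1.13%, 3.88% and 1.28%, and Cd36 at 0.0900%. The summed villus markers and the summed Paneth cell markers each include 1 gene that was not called between the tissues. Whether SI material in COL libraries took part in these levels was not tested. Without COL4, all 10 genes were still called, and the log2 fold change of Fabp1 was 12.51, of Apoc3 12.70, of Apoa4 12.04 and of Apoa1 11.59.

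**Figure D4:**
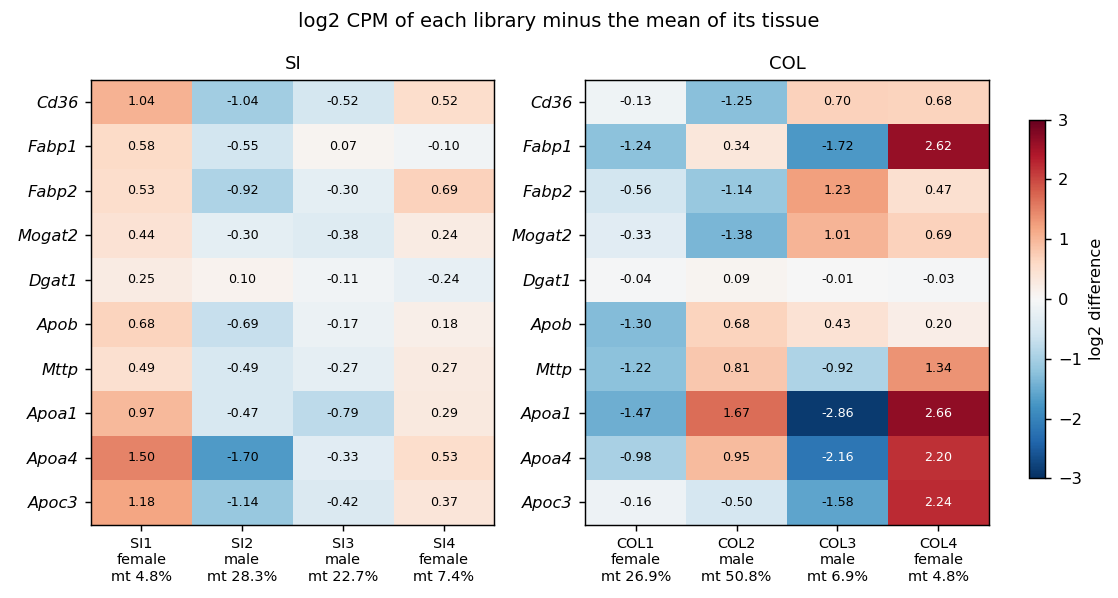
Difference on the log2 CPM scale between each library and the mean of its tissue, with the sex of the mouse and the percent of mitochondrial counts (mt) under each library. In SI most genes share the sign within a library, with SI1 above the mean and SI2 below it; in COL, COL4 lies above the mean and COL3 below it for Fabp1, Apoa1, Apoa4 and Apoc3.

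To place the 10 genes in the wider pathway, 77 other genes of lipid uptake, glyceride synthesis, lipoprotein assembly, sterol handling and their regulation were read from the same fit. Of the 71 tested, 37 were higher in SI, 13 were higher in COL and 21 were not called. Their median log2 fold change was 1.62. The 71 include Sik3, Pafah1b2, Zpr1 and Bud13, the neighbours of the apolipoprotein cluster, and without these 4 the counts were 37, 13 and 17 of 67, with a median of 1.63. Over all genes tested 15.5% were called toward SI and 12.9% toward COL, and nothing is read from the share of lipid genes called toward COL. Scaling by library size alone, which moved the median of all genes tested from -0.09 to -0.82, gave 33 and 20.

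Among 10 tested genes of fatty acid transport and activation, 5 were called toward SI and 4 toward COL. Acsl5, a long-chain acyl-CoA synthetase, was at 3740 to 6019 CPM in SI and 45.6 to 85.0 CPM in COL (log2 fold change 6.27 ± 0.56), and the very long-chain synthetase and transporter Slc27a2 at 28.6 to 70.1 and 1.39 to 2.64 CPM (4.72 ± 0.39). Other fatty acid-binding proteins did not go with Fabp1 and Fabp2. Fabp6, the ileal bile acid-binding protein, had a log2 fold change of -4.54 ± 0.87 (SE; edgeR, adjusted p = 0.00242), with at most 9 reads in an SI library. Fabp5 was at 1.69 to 6.39 CPM in SI and 3.48 to 15.1 CPM in COL and was not called (-1.43 ± 0.50; edgeR, adjusted p = 0.0540), but passed the threshold when donor mice were blocked (edgeR, adjusted p = 0.0242). Fabp4 was at 0 reads in all SI libraries and had at most 12 in a COL library.

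Glyceride synthesis split in the same way, with 7 of 13 tested genes higher in SI and 4 in COL. Among the latter, Lpin1 lost its call when donor mice were blocked (edgeR, adjusted p = 0.0509). Dgat2, the other enzyme of the last step, changed less than Dgat1, with 91.4 to 219.5 CPM in SI and 9.42 to 22.3 CPM in COL (log2 fold change 3.32 ± 0.39; edgeR, adjusted p = 0.000102). The log2 ratio of Dgat1 to Dgat2 per kilobase came to 1.53 ± 0.59 in the SI libraries against 0.18 ± 0.50 in COL (SD, n = 4 each), without overlap. Gpat3, which starts the glycerol phosphate route, was at 120.3 to 230.3 CPM in SI and 2.36 to 8.43 CPM in COL (4.94 ± 0.48). Mgll, a lipase that degrades monoacylglycerol, the substrate of Mogat2, went the other way, with 2.40 to 5.36 CPM in SI and 46.3 to 63.0 CPM in COL (-3.92 ± 0.31; edgeR, adjusted p = 1.29e-05). Mogat1, the paralog of Mogat2, had 0 reads in all SI libraries and at most 7 in a COL library.

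In assembly and export, 11 of 15 genes were higher in SI and none was higher in COL. P4hb, the protein disulfide isomerase that forms the transfer protein together with Mttp, was at 3034 to 6803 CPM in SI and still at 266.5 to 915.6 CPM in COL (2.83 ± 0.56). Tm6sf2, Prap1 and Pla2g12b, which take part in lipid loading of the particles, had log2 fold changes of 6.34 ± 0.60, 5.90 ± 0.71 and 5.86 ± 0.65. Apobec1, the enzyme that edits Apob RNA so that the short form of the protein is made, was at 35.9 to 66.2 CPM in SI and 5.07 to 26.9 CPM in COL (1.81 ± 0.44; edgeR, adjusted p = 0.0104). Of the GTPases of vesicle export, Sar1b was higher in SI (2.82 ± 0.52; edgeR, adjusted p = 0.0019) while Sar1a was at -0.01 ± 0.28. Among other apolipoproteins, Apoc2, the cofactor of lipoprotein lipase, stood at 616.8 to 2886 CPM in SI and 0.939 to 5.42 CPM in COL (8.57 ± 0.82), and Apol7a at 137.0 to 539.2 and 7.54 to 37.1 CPM (3.74 ± 0.56).

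Of 7 genes of sterol absorption and esterification, 5 were called toward SI and 1 toward COL. Npc1l1, the importer of dietary cholesterol, was at 820.9 to 1690 CPM in SI and 0.147 to 3.46 CPM in COL (log2 fold change 9.69 ± 0.99), Abcg8, part of the transporter that returns sterols to the lumen, at 290.0 to 543.0 and 0.557 to 2.30 CPM (8.24 ± 0.59), and Soat2, which esterifies cholesterol, at 92.9 to 302.5 and 0.469 to 0.802 CPM (7.99 ± 0.51). Its paralog Soat1 was higher in COL (-1.76 ± 0.45; edgeR, adjusted p = 0.0121). Of 18 regulators, 7 were called toward SI, 4 toward COL and 7 not at all. Hnf4a, a nuclear receptor of lipid genes in gut and liver, was at 347.8 to 423.6 CPM in SI and 221.5 to 383.4 CPM in COL (0.29 ± 0.31; edgeR, adjusted p = 0.521), whereas its paralog Hnf4g was at 474.8 to 899.2 and 18.5 to 56.7 CPM (4.44 ± 0.47; edgeR, adjusted p = 5.64e-05). Gata4, which marks the proximal SI, and Creb3l3, a membrane-bound factor of triglyceride metabolism, had log2 fold changes of 8.98 ± 0.64 and 6.48 ± 0.57, and Cdx1 of -2.09 ± 0.28 (edgeR, adjusted p = 0.000242).

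**Figure D5:**
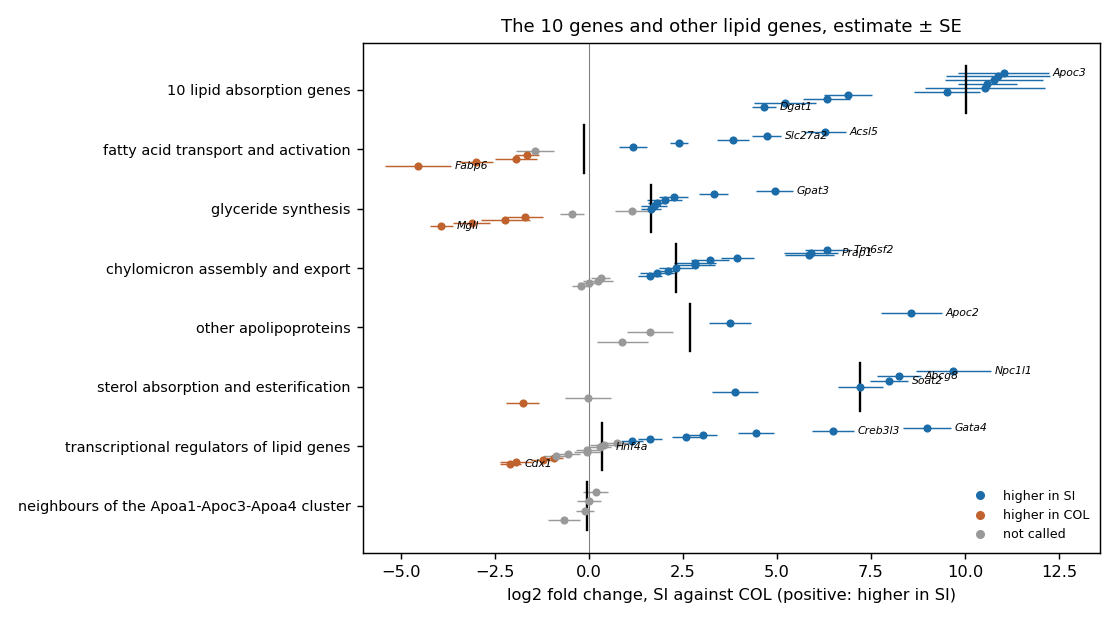
Log2 fold change of SI against COL with its SE for the 10 genes and for each group of other lipid genes, with blue for genes called higher in SI, orange for genes called higher in COL, grey for genes not called, and a black bar for the median of the group. The 10 genes lie between 4.65 and 11.03; the groups of fatty acid transport, glyceride synthesis, sterol and regulator genes hold calls in both directions.

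The genes whose level followed the mean of the 10 most closely over the 8 libraries, among 3639 well-expressed genes, were Slc26a6, an anion exchanger, Clca4b, Ccl25, a chemokine of the SI, Anxa13 and Acsl5, with Pearson correlations of 0.998, 0.998, 0.998, 0.998 and 0.997. The points share libraries and fall into 2 tissues, so these values mostly describe the step between SI and COL. Slc26a6, for example, had 1116 ± 343 CPM in the SI libraries and 2.57 ± 0.911 in the COL libraries (SD, n = 4 each).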

How the data were processed

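RNA was purified from EDTA-isolated crypts of 4 SI and 4 COL samples, 1 of each per donor mouse, and sequenced. Per the paper's methods, paired-end reads were trimmed (Trimmomatic 0.36) before alignment to mm10 and per-gene counting, both with STAR 2.5.2b; versions are those of the submitters' processing notes, which list mm9 beside mm10. The authors deposited raw counts per Ensembl gene, without normalization. The annotation release and the use of strand are not given in the sources used here. Symbols and coordinates come from GENCODE vM21 (GRCm38), which lacks 563 of 45706 identifiers.

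Groups, donor mouse and sex come from the labels. EdgeR 4.0.16 (R 4.3.3) was run as TMM, filterByExpr by tissue (at least 10 counts, 15 in all, in 4 libraries), glmQLFit and glmQLFTest. Standard errors come from the coefficient and the F statistic. Alternatives were library size scaling, DESeq2 1.42.0, limma-voom 3.58.1, the donor mouse as a replicate block, other filters, mitochondrial share or sex as a covariate, and leaving out each library. The fits were also run on simulated counts with the same dispersion for every gene and no pairing. That dispersion was lower than the common dispersion of these data (0.245), so the run does not cover their spread. The donor numbers pair the samples: deviations from the tissue means correlated across genes at -0.24, 0.39, -0.08 and 0.33 within mice 1, 2, 3 and 5, and at -0.03 on average between mice. Within each tissue, libraries differed by more than sampling noise. Ratios used 0.5 added counts. No exact test of 4 libraries against 4 goes below p = 0.0286.

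The 10 genes and the other lists were chosen with earlier results of these data known. Of the 78 other lipid genes listed, Vamp7 matched no identifier, which left 77. Named are the paralogs and partners of the 10, and per group up to 3 called genes with the largest log2 fold change. Sar1a, Sar1b, Soat1, Cdx1, the cluster neighbours and the marker genes were named after their values were seen.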

Additional observations from a re-analysis of the deposited data

How the results depend on the processing

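Under the alternatives, all 10 lipid genes stayed called as higher in SI, in 170 of 170 fits, with adjusted p-values of at most 0.00372. The lowest log2 fold changes came with library size scaling, from 3.91 for Dgat1 to 10.17 for Apoc3, against a median of -0.82 over all genes. Library size scaling also gave 5903 calls over all genes, 1115 higher in SI and 4788 higher in COL, against 4116 with TMM (2253 and 1863), and 20 in place of 13 other lipid genes higher in COL. The mitochondrial share as a covariate gave 5458 calls, and leaving out single libraries gave 3167 to 4480. With the donor mouse as a replicate block, the pairing left 10 of 10 genes called (log2 fold change 4.64 for Dgat1 to 11.83 for Fabp1), Fabp5 became called (adjusted p = 0.0242) and Lpin1 was no longer called (adjusted p = 0.0509). Of the cell and tissue markers, Slc37a2, Ptprc and Vwf became called (adjusted p = 0.0372, 0.0430 and 0.0317), and no other marker or other lipid gene fitted changed its call with the block. Fabp5 (adjusted p = 0.0540) was also called under 8 other alternatives (adjusted p = 0.00535 to 0.0454), and over all its alternatives the highest adjusted p was 0.161, without COL replicate 1. No interaction of sex and tissue was called for the 10 genes in 150 fits (lowest adjusted p = 0.444), while 78 other genes were called without a filter on low counts. The differences of level ratios between SI and COL kept their direction for Fabp1 to Fabp2 (5.42 to 7.17), Apob to Mttp (-3.85 to -3.0) and Dgat1 to Dgat2 (1.07 to 1.56) and spanned 0 for Apoa1 to Apoa4 (-0.09 to 0.54). Depth limits Cd36 and Apoc3 in COL, where single libraries held 0 to 10 and 4 to 119 reads.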
